A study of Sus scrofa with 6 samples.

Results

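Sialic acid caps the glycans of most plasma glycoproteins, and its loss exposes the galactose that the asialoglycoprotein receptor of hepatocytes binds. The sugar is made in the cytosol from UDP-GlcNAc, is activated to CMP-sialic acid, and is carried into the Golgi, where sialyltransferases attach it to galactose. Lysosomal sialidase removes it again when glycoproteins are broken down. This route was followed through 10 genes, taken by symbol from the deposited table: GNE, NANS, CMAS and SLC35A1 (synthesis, activation and transport), B4GALT1 (galactose addition), ST6GAL1, ST3GAL1, ST3GAL3 and ST3GAL4 (transfer) and NEU1 (removal). All 10 were among the 17109 genes of the table, and all 10 passed the filter on low counts.

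The libraries came from liver of Bama minipigs fasted overnight, with 1 library per animal: WT1, WT2 and WT3 from WT pigs, and S03, S04 and S05 from ASGR1+/- pigs, which carry 1 edited allele of the receptor's major subunit. The allele was made with CRISPR/Cas9 in fetal fibroblasts, which were donors for nuclear transfer, and its deletion spans an intron-exon border. The study then obtained heterozygous piglets of a next generation, among them the female. Which generation the sequenced pigs belong to is not stated in the sources used here. The labels give no age for these animals, and genotype is the only difference between the groups that they name. Pigs within an experiment were close in age and, apart from a female ASGR1+/- pig, male. The study left S03 out after its principal-component analysis, so the comparison is of S04 and S05 with the 3 WT libraries, and S03 is given apart.

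Totals of the estimated counts per gene ran from 15397768 (S03) to 16237732 (WT3). TPM, the authors' values per transcript length with a fixed sum per library, was used to compare genes with each other. CPM, here each count relative to its library's size after TMM scaling in edgeR, was used to compare libraries. The TMM factors ran from 0.857 (WT3) to 1.15 (S03), so a gene can stand differently on each scale. Genes of chromosome Y summed to 45.3 CPM in S03 and to between 435.5 and 468.7 CPM in the other libraries. The labels do not give sex or say which library came from the female, so comparisons that include S03 may also mix sexes. Summed over 8 hepatocyte markers, the libraries held 22880 (S04) to 135300 (WT3) CPM, so hepatocyte transcripts were abundant in each. S04, S05 and S03 (44480 CPM) were all below WT (from 51080). Endothelial markers (8 genes) summed to 247.5 (S04) and 324.8 (S05) CPM, below the 415 to 460 of WT, and to 664 in S03. Erythroid markers (6 genes) differed the most, at 3.37 (S04) and 18.0 (S05) CPM, 84.2 to 247.5 in WT and 796.5 in S03. Sums of T and NK cell markers were also lower in S04 and S05 than in every WT library, those of neutrophil and cholangiocyte markers were higher, and those of macrophage and stellate markers overlapped. The neutrophil sums were small, at 17.0 (S04) and 16.55 (S05) CPM beside 5.39 to 8.51 in WT. Of the 5 cholangiocyte markers tested, 2 had a positive and 3 a negative log2 fold change. Their sum in S03 (20.15 CPM) lay within WT (14.85 to 25.84). In bulk tissue, fewer cells of a type and less RNA per cell cannot be told apart, and the part of these shifts in the results below was not tested.

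In WT liver ST6GAL1, which attaches sialic acid to galactose at the ends of N-glycans, was by far the most abundant of the 10. It had a mean of 370.3 ± 44.9 TPM (SD, n = 3), above 98.0% of all genes. CMAS (54.7 ± 8.90), ST3GAL1 (40.1 ± 10.4), NANS (32.1 ± 1.03) and GNE (28.8 ± 5.76) followed. Neighbours among these 4 overlapped in WT range, so the order of neighbours is not set by these livers. The WT range of CMAS (48.2 to 64.9) lay above those of NANS (30.9 to 32.8) and GNE (22.5 to 33.7). NEU1 (20.5 ± 2.07) and B4GALT1 (20.4 ± 1.96) were at nearly the same TPM. SLC35A1 came next with 17.2 ± 0.633 TPM. ST3GAL4 (10.95 ± 2.53) and ST3GAL3 (8.07 ± 1.16), whose ranges overlapped, were the lowest.

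**Figure D1:**
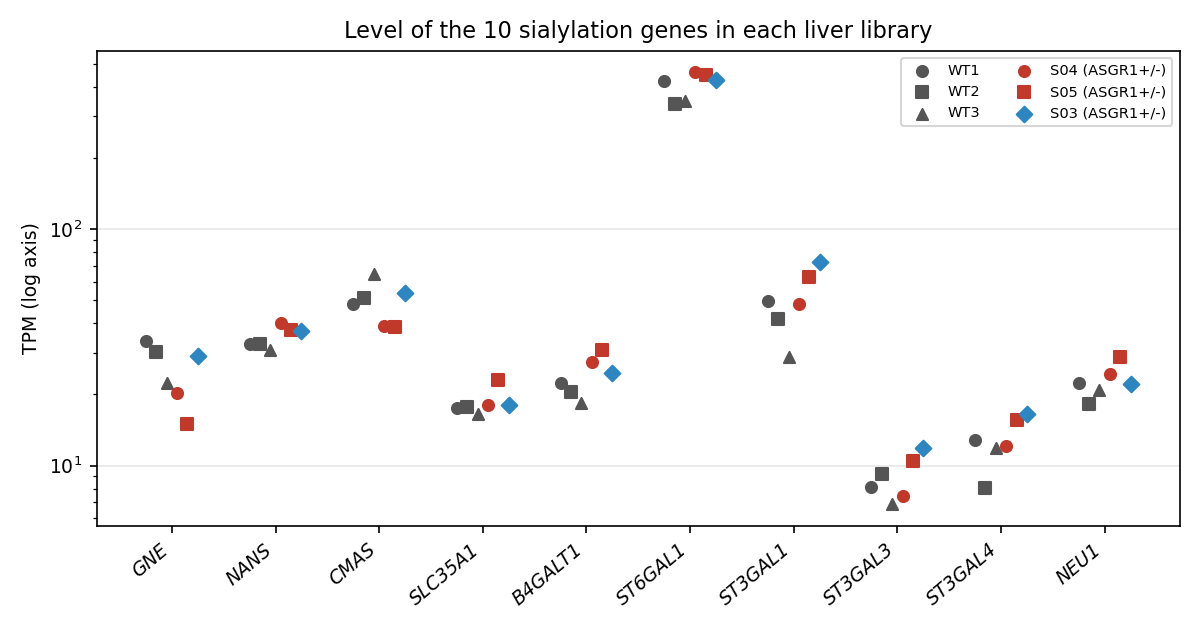
TPM of the 10 genes (log axis) in each library, with grey for WT, red for S04 and S05 and blue for S03; each point is 1 animal. ST6GAL1 lies between 338.9 and 460.9 TPM, far above the other 9 genes, which lie between 6.88 and 72.5.

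The genes for the synthesis of the sugar did not share a direction of log2 fold change in S04 and S05, and differences between the genes were not tested. GNE and CMAS had lower means in S04 and S05 and did not overlap WT. NANS and SLC35A1, which stand between and after them in the route, had slightly higher means and overlapped WT. None of the 4 passed the test, an adjusted p of 0.05 or less with edgeR.

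GNE (gene ID 641344; Sscrofa11.1, chromosome 1, 236998754 to 237065819) encodes the epimerase and kinase that opens sialic acid synthesis and is its rate-limiting step. S04 held 65.1 CPM and S05 45.5, whereas WT1, WT2 and WT3 held 99.2, 100.2 and 84.9 and S03 held 81.2. Both S04 and S05 were below every WT library, and S03 was just under the lowest of them. The log2 fold change (log2FC) of S04 and S05 over WT was -0.78 (SE 0.21, 95% confidence interval -1.28 to -0.28, adjusted p = 0.113 from edgeR), which is 0.584-fold. It was -0.57 once S03 was included (adjusted p = 0.276 from edgeR). By adjusted p alone, DESeq2, the tool of the study, passed GNE without S03 (adjusted p = 0.0284) and not with it (adjusted p = 0.229). That call was also lost when S05 (adjusted p = 0.498 from DESeq2), WT1 (0.165) or WT2 (0.224) was left out. The study also required an absolute log2FC of at least 1, which GNE did not reach (-0.77 from DESeq2). On the TPM scale S03, at 29.2, lay within the WT range of 22.5 to 33.7, and S04 (20.3) and S05 (15.04) lay below it.

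CMAS (gene ID 100520022; chromosome 5, 51438175 to 51458531) encodes the nuclear enzyme that joins sialic acid to CMP, the form that the transferases use. Its CPM was 51.3 (S04) and 47.8 (S05), and 58.1 (WT1), 69.4 (WT2), 100.9 (WT3) and 61.6 (S03). The pair S04 and S05 was nearly level, whereas the WT libraries differed by 1.74 times, the widest spread in WT among the 10 genes. Its log2FC was -0.62 (SE 0.26, 95% confidence interval -1.22 to -0.012, adjusted p = 0.233 from edgeR). Leaving out WT3, the highest WT library, brought it to -0.36.

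NANS (gene ID 100155883; chromosome 1, 239881984 to 239912727) makes the phosphorylated form of sialic acid. S04 and S05 held 23.5 and 20.9 CPM, the WT libraries 17.6, 20.2 and 21.7, and S03 19.3. SLC35A1 (gene ID 100517983; chromosome 1, 55859619 to 55895785) encodes the Golgi carrier of CMP-sialic acid. S04 and S05 held 23.7 and 28.3 CPM, the WT libraries 21.4 to 25.7, and S03 20.5. The groups overlapped for both genes. For NANS the log2FC was 0.16 (95% confidence interval -0.26 to 0.59, adjusted p = 0.638 from edgeR). For SLC35A1 it was 0.13 (95% confidence interval -0.28 to 0.55, adjusted p = 0.705 from edgeR). These intervals reach up to 1.501-fold and 1.46-fold, so they leave room for a modest difference that these livers could not show.

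**Figure D2:**
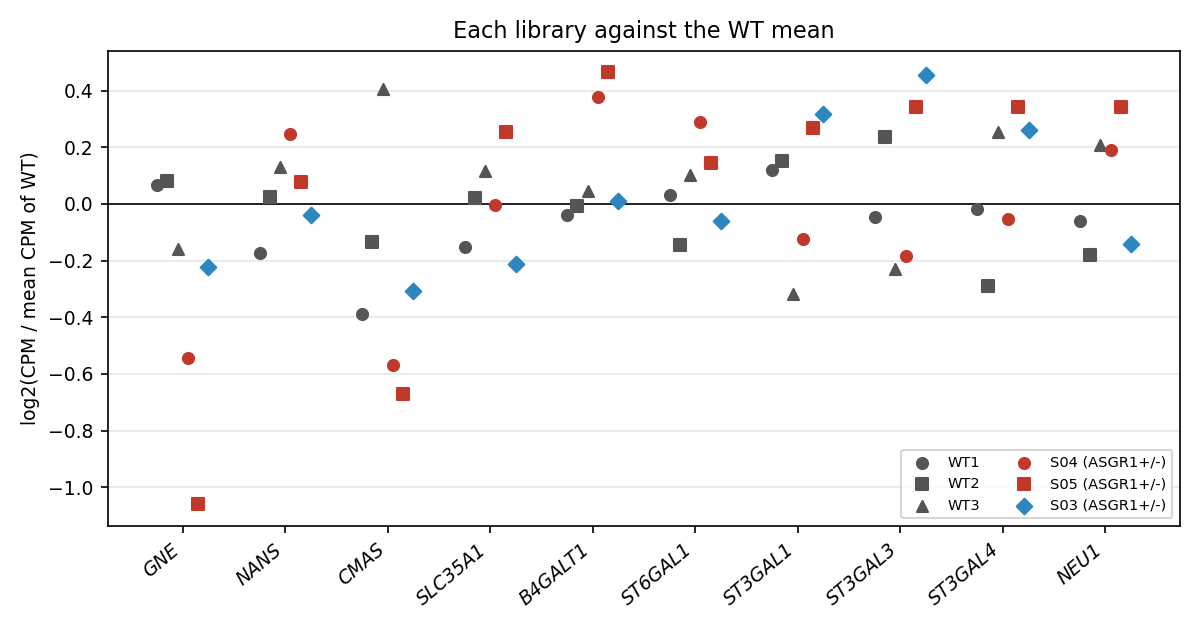
Log2 ratio of each library's CPM to the WT mean for the 10 genes; each point is 1 animal and the line at 0 is the WT mean. S04 and S05 lie below every WT point for GNE and CMAS and above every WT point for B4GALT1 and ST6GAL1, and of these 4 genes S03 is outside WT on the same side for GNE alone.

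B4GALT1 (gene ID 100511655; chromosome 10, 33317295 to 33381285), the Golgi enzyme that adds the galactose on which sialic acid is placed, had a higher mean in S04 and S05. They held 83.7 and 88.9 CPM, while WT1, WT2 and WT3 held 62.8, 64.0 and 66.5, and S03 held 64.9. The WT libraries were within 1.06 times of each other, the tightest of the 10 genes, and S03 fell among them. Its log2FC was 0.42 (SE 0.15, 95% confidence interval 0.066 to 0.78, adjusted p = 0.180 from edgeR), a 1.34-fold higher level. Inclusion of S03 lowered it to 0.30 (adjusted p = 0.423 from edgeR). On the TPM scale S03, at 24.6, stood above the WT range of 18.5 to 22.4, together with S04 (27.5) and S05 (31.0), so the place of S03 depends on the scaling.

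The 4 sialyltransferases had log2FC values between 0.085 and 0.22. ST6GAL1 (gene ID 100302026) is on chromosome 13, 124699622 to 124837847. S04 held 1221 CPM and S05 1105, whereas WT1, WT2 and WT3 held 1021, 903 and 1072, and S03 957. S04 and S05 were above every WT library by a margin smaller than the WT spread. The log2FC of ST6GAL1 was 0.22 (SE 0.20, 95% confidence interval -0.26 to 0.70, adjusted p = 0.579 from edgeR). B lymphocytes are also known to express ST6GAL1. A sum over 8 B and plasma cell markers was 85.1 (S04) and 58.4 (S05) CPM, within the 31.2 to 120.7 of WT, and 105 in S03.

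ST3GAL1 acts on O-glycans of mucin type, and ST3GAL3 and ST3GAL4 attach sialic acid in another linkage than ST6GAL1 to the ends of N-glycans and glycolipids. ST3GAL1 (gene ID 445537; chromosome 4, 7814492 to 7911053) was at 165 (S04) and 217 (S05) CPM, and at 196, 200.1 and 145 in the WT libraries. S03, with 224.5 CPM, was the highest of the 6. ST3GAL3 (gene ID 396619; chromosome 6, 167363348 to 167596892) was at 9.63 (S04) and 13.9 (S05) CPM, 9.34 to 12.9 in WT and 15.0 in S03. ST3GAL4 (gene ID 396602; chromosome 9, 53442795 to 53491847) was at 17.1 (S04) and 22.4 (S05) CPM, 14.5 to 21.1 in WT and 21.2 in S03. In each of these genes S05 was higher than S04, S04 was within WT, and S03 was above every WT library, for ST3GAL4 by a narrow margin. Their log2FC values were 0.085, 0.10 and 0.16 (adjusted p = 0.859, 0.849 and 0.731 from edgeR). The widest of their 95% confidence intervals, that of ST3GAL3, ran from -0.50 to 0.70.

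NEU1 (gene ID 100124381; chromosome 7, 23953721 to 23958659) encodes the lysosomal sialidase, which works in a complex with CTSA. S04 and S05 held 29.8 and 33.1 CPM, the WT libraries 25.1, 23.1 and 30.2, and S03 23.7. S04 lay between WT1 and WT3, so the groups overlapped. The log2FC of NEU1 was 0.27 (95% confidence interval -0.16 to 0.70, adjusted p = 0.446 from edgeR). The ratio of ST6GAL1 to NEU1 within a library, transfer against removal on the TPM scale, was 18.9 (S04), 15.6 (S05) and 19.2 (S03), and 18.9, 18.6 and 16.8 in the WT libraries. S04 stood at the top of the WT values and S05 below them, and with 2 libraries against 3 no permutation test could pass.

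**Figure D3:**
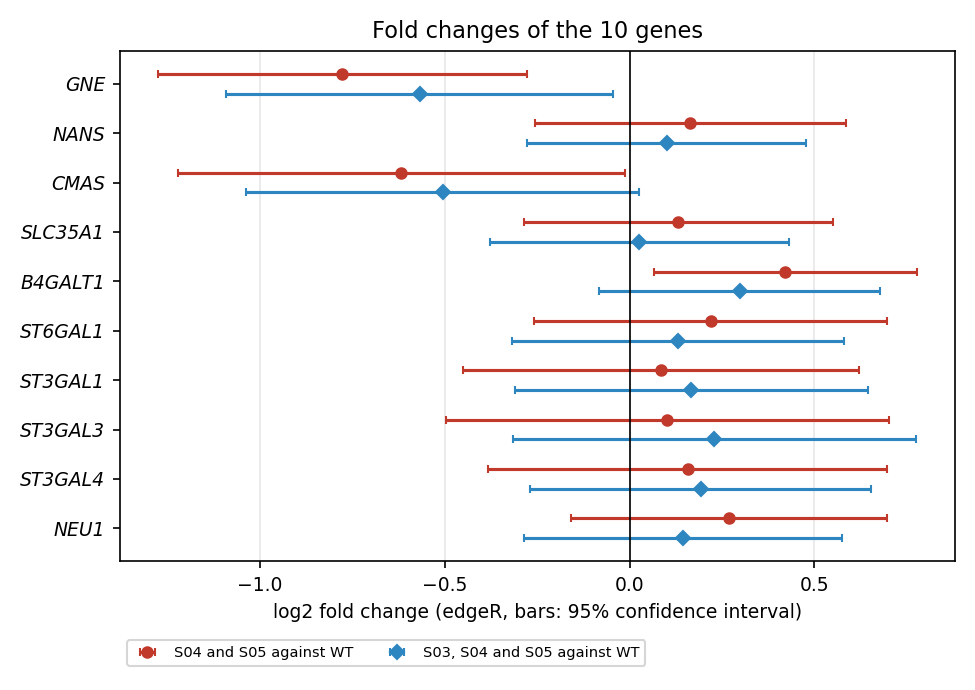
Log2FC of the 10 genes with its 95% confidence interval (edgeR), in red for S04 and S05 against WT and in blue with S03 included. The red intervals of GNE and CMAS lie below 0 and that of B4GALT1 above it, and no gene passed after adjustment over all genes.

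Read against the whole table, the share of the 10 genes that differed by edgeR, DESeq2 or CPM was not far from that of genes at large. By TPM the share that was higher in S04 and S05 was larger than that of all genes. None of the 10 passed with edgeR at an adjusted p of 0.05 or less, where 0.791% of the 13401 genes tested did. At an unadjusted p under 0.05, B4GALT1 was higher and GNE and CMAS were lower, 3 of 10 genes, and 20.9% of all genes tested had such a p. With S03 none passed (0.136% of 13243 genes), and GNE alone had an unadjusted p under 0.05 (16.1% of genes). DESeq2 passed GNE (9.57% of the genes it adjusted), and none of the 10 with S03 (5.64%). By CPM, ST6GAL1 and B4GALT1 were higher in S04 and S05 than in every WT library (19.0% of genes), and GNE and CMAS were lower than in every one (20.1%). By TPM, 5 of the 10 were higher without overlap (23.1% of genes), since NEU1, NANS and SLC35A1 joined ST6GAL1 and B4GALT1, and GNE and CMAS were again lower (14.4%). By log2FC 8 were positive and 2 negative, with a median of 0.145, against 50.2% positive and a median of 0.0031 over all genes tested. Without S05 this balance was lost, with 5 positive, 5 negative and a median of -0.012.

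ST6GAL1 made up most of the transferase transcripts in every liver. Of the summed TPM of the ST6GAL and ST3GAL genes, it held 82.4% (S04) and 79.2% (S05), 78.5% to 80.6% in WT and 75.1% in S03. ST3GAL1 was next with 8.60% (S04) and 11.12% (S05), 6.67% to 9.76% in WT and 12.7% in S03. The shares of both genes overlapped between the groups. ST3GAL5, which makes the ganglioside GM3, held 2.995% (S04) and 2.89% (S05), 4.21% to 5.48% in WT and 4.68% in S03. The sum itself was 560 (S04), 565 (S05) and 569 (S03) TPM, and 428 to 537 in WT, so the ASGR1+/- libraries were above WT on this scale. By TPM, 23.1% of all genes tested were higher in S04 and S05 than in every WT library. Most of the sum is ST6GAL1, which by CPM was at 957 in S03, within WT (903 to 1072).

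The ratio of count to FPKM gives an implied transcript length of a gene in a library, if FPKM was scaled by the sum of the counts, which the sources used here do not state. For B4GALT1, GNE, CMAS and NEU1 the longest of the 6 values was 1.006 to 1.014 times the shortest. ST3GAL1 departed from this, and is described because of its values. Its implied length was 4639 (S04), 4969 (S05) and 4852 (S03) bases, and 5802 (WT1), 6310 (WT2) and 5726 (WT3) bases. All 3 ASGR1+/- livers were shorter than all WT livers, and the mean of S04 and S05 was 80.8% of that of WT. Of the 10313 genes tested with an FPKM of 1 or more in every library, 0.368% had lengths in S04 and S05 apart from WT by at least as much as ST3GAL1, in either direction. RefSeq lists 9 transcripts for ST3GAL1 in Sscrofa11.1, 14 for ST3GAL3 and 11 for ST3GAL4. It lists 1 each for B4GALT1, CMAS and NEU1, 5 for GNE, and 20 for ST6GAL1, whose longest value was 1.02 times the shortest. An implied length can hardly vary for a gene with 1 listed transcript, and the 10313 genes include such genes. The implied length of ST3GAL3 ran from 1558 (WT3) to 1980 (S03) bases and that of ST3GAL4 from 1905 (S04) to 2368 (WT2), and the groups overlapped for both. On the scale of counts ST3GAL1 had a log2FC of 0.085, and on that of log2(TPM + 1) one of 0.48 (adjusted p = 0.384 from limma). Counts of single transcripts were not analysed here.

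**Figure D4:**
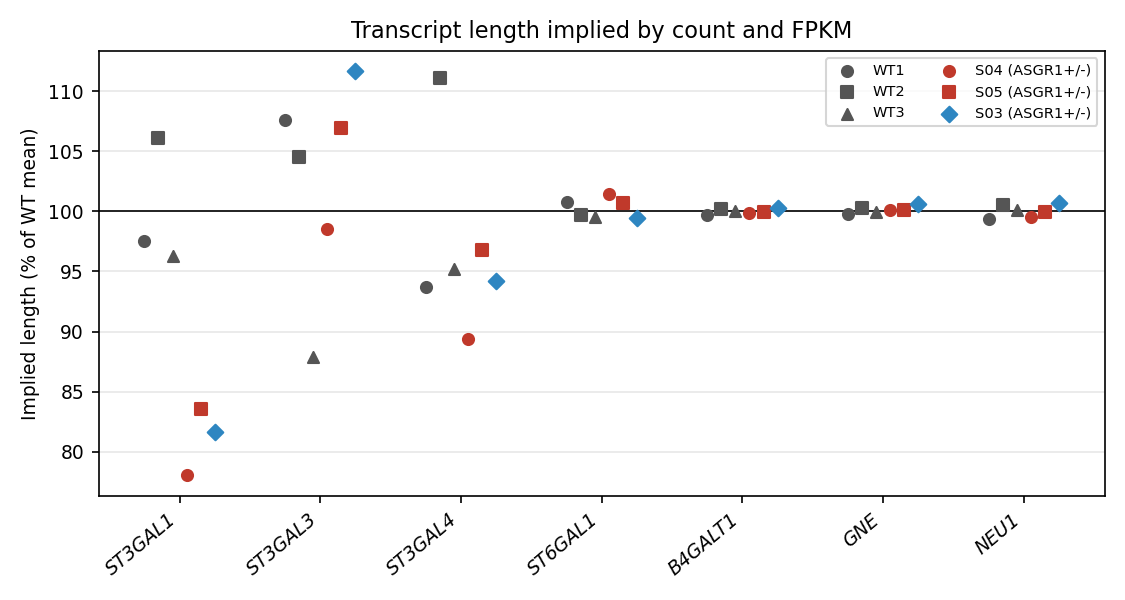
Transcript length implied by count and FPKM, as a percentage of the WT mean, for 7 of the genes; each point is 1 animal. The ST3GAL1 points of S03, S04 and S05 lie well below the WT points, while B4GALT1, GNE, NEU1 and ST6GAL1 stay near 100.

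Of 64 other genes of the route, listed by role, 62 were in the table and 59 were tested. None passed with edgeR at an adjusted p of 0.05 or less (smallest adjusted p = 0.0999 from edgeR). At an unadjusted p under 0.05, 2 were higher and 6 lower, 8 of 59, and 20.9% of all genes tested had such a p. The median log2FC was -0.12. DESeq2 passed B4GALT5 as higher and ST6GAL2, ST6GALNAC2 and ST8SIA5 as lower, and only RENBP, as lower, with S03. That is 4 of 59 genes and 1 with S03, beside 9.57% and 5.64% of all genes that DESeq2 adjusted. B4GALT5 (log2FC 1.03 from DESeq2) and ST8SIA5 (-1.25) also reached the absolute log2FC of 1 that the study required. ST6GAL2 (-0.94), ST6GALNAC2 (-0.97) and, with S03, RENBP (-0.67) did not. The untested ones, ST8SIA2, ST8SIA6 and NEU2, had at most 1 count in any library.

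Among the other sialyltransferases, 11 of the 13 tested had a negative log2FC, and 4 of them had an unadjusted p under 0.05. Of all genes tested 50.2% were positive, and 20.9% had such a p in either direction. Some of the 13 were near the floor, such as ST8SIA3 with 0 to 12 counts in a library. With S03 included, 11 of the 12 tested were negative, with a median of -0.31. None of the 12 had an unadjusted p under 0.05 from edgeR, beside 16.1% of all genes. The median of the 13 was -0.54, and it ran from -0.26 (limma on log2(TPM + 1)) to -0.64 (without WT2) under the alternatives. ST6GAL2, the relative of ST6GAL1, was at 4.23 (S04) and 4.59 (S05) CPM, and at 7.62, 9.25 and 8.77 in the WT libraries. S03, with 10.9 CPM, was above every WT library. Its log2FC was -0.95 (adjusted p = 0.0999 from edgeR), and -0.37 once S03 was included (adjusted p = 0.686). ST6GALNAC2, which acts on O-glycans, was at 17.2 (S04) and 14.9 (S05) CPM, 22.7 to 43.0 in WT and 35.7 in S03, with a log2FC of -0.98 (adjusted p = 0.132 from edgeR). ST8SIA5, a ganglioside sialyltransferase, had a log2FC of -1.26 (adjusted p = 0.131 from edgeR) from levels of 2.48 to 10.6 CPM, and of -0.72 once S03 was included. By TPM the groups overlapped for ST8SIA5, with 1.33 (S04) and 0.78 (S05) beside 0.79 to 1.87 in WT, and limma on log2(TPM + 1) gave -0.14 (adjusted p = 0.794). In DESeq2 the adjusted p of ST6GAL2, ST6GALNAC2 and ST8SIA5 was 0.0217, 0.0431 and 0.0333. ST3GAL5, the most abundant of this group, was at 32.1 (S04) and 29.5 (S05) CPM, 35.6 to 52.0 in WT and 44.4 in S03, with a log2FC of -0.52 (adjusted p = 0.207 from edgeR). S03 was within or above WT for all 4 genes. Its endothelial marker sum, like its level of ST6GAL2, was the highest of the 6 libraries, and S04 and S05 were the lowest for both. The erythroid sum was likewise highest in S03 and lowest in S04 and S05, and the stellate sum was also highest in S03 (892.5 CPM). The part of these cells in the levels was not tested.

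B4GALT5, which makes lactosylceramide, had the highest log2FC of the named genes outside the 10. S04 held 47.3 CPM and S05 64.8, whereas WT1, WT2 and WT3 held 25.96, 19.4 and 37.2, and S03 37.3. S04 and S05 lay above every WT library and S03 just above WT3. The log2FC of B4GALT5 was 1.03 (SE 0.29, adjusted p = 0.121 from edgeR, and 0.0287 from DESeq2). UGP2, which makes the UDP-glucose that UDP-galactose is formed from, was at 687 (S04) and 949 (S05) CPM, 538 to 568 in WT and 527 in S03, with a log2FC of 0.57 (adjusted p = 0.196 from edgeR). For UGP2 it was 0.34 without S05 and 0.79 without S04. B4GALT3, the most abundant of the other galactosyltransferases, had a log2FC of 0.27 (adjusted p = 0.413 from edgeR). It was at 28.5 (S04), 33.3 (S05) and 32.6 (S03) CPM, above the 23.1 to 26.95 of WT. Across all genes tested, 19.0% had S04 and S05 above every WT library by CPM.

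RENBP, which converts GlcNAc and ManNAc into each other beside the GNE step, was below WT in all 3 ASGR1+/- livers. S04, S05 and S03 held 13.6, 11.96 and 11.7 CPM, and the WT libraries 20.5, 19.9 and 19.0. Its log2FC was -0.63 (SE 0.17, adjusted p = 0.118 from edgeR), and -0.67 once S03 was included (adjusted p = 0.113 from edgeR, and 0.0188 from DESeq2). MGAT2, which starts a branch of complex N-glycans, was also below WT in all 3, at 29.0, 28.6 and 29.8 CPM beside 38.3 to 42.0 in WT, with a log2FC of -0.47 (adjusted p = 0.154 from edgeR). Across all genes tested, 11.9% had all 3 ASGR1+/- libraries below every WT library. Other abundant genes of the route overlapped between the groups: UAP1 (log2FC 0.12), which makes UDP-GlcNAc, CTSA (0.040), the partner of NEU1, and MGAT1 (-0.070, but 0.015 with scaling to library totals), which opens complex N-glycans.

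**Figure D5:**
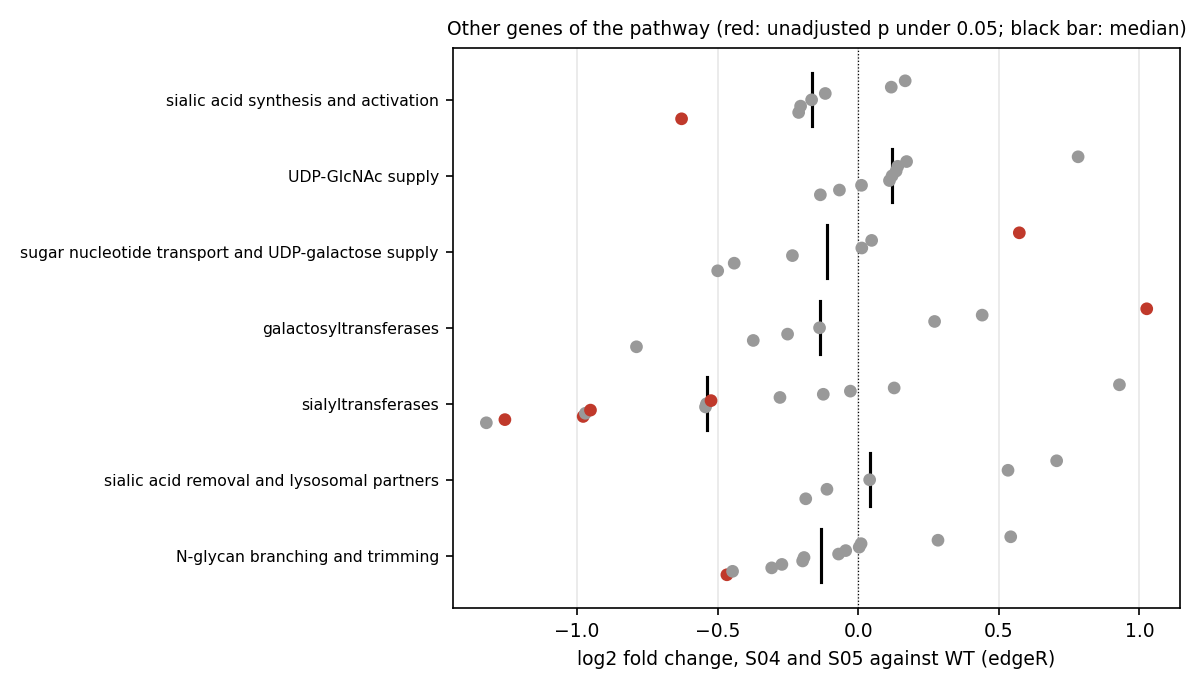
Log2FC of S04 and S05 against WT (edgeR) for the 59 other genes tested, by role; each point is 1 gene, red where the unadjusted p is under 0.05, and the black bar is the median of the role. The median of the other sialyltransferases lies at -0.54, and no gene passed after adjustment.

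The receptor's own genes were read in the same fit. ASGR1 was at 290.2 (S04), 273 (S05) and 334 (S03) CPM and at 284.8 to 369.5 in WT, with a log2FC of -0.18 (adjusted p = 0.652 from edgeR). Only a part of the gene is missing from the edited allele, so this count is a weak check of the labels. At the protein level, the study reported by immunoblot that ASGR1 was substantially lower in livers of ASGR1+/- pigs than of WT pigs. ASGR2, the partner subunit, was at 169 (S04), 173 (S05) and 198 (S03) CPM, below every WT library (250.0 to 316). Its log2FC was -0.77 (adjusted p = 0.0978 from edgeR), and it passed with DESeq2 (adjusted p = 0.00365). The log2FC of ASGR2 from DESeq2, -0.76, did not reach the size that the study required.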

How the data were processed

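RNA of 6 livers was sequenced on the BGISEQ platform. Reads were trimmed with SOAPnuke and aligned with HISAT and Bowtie2; HISAT2 2.0.4, Bowtie2 and Sscrofa11.1 are named in the submitters' processing notes. The authors deposited estimated counts per gene (not normalized, 12.03% of cells not whole), TPM (scaled to a fixed sum per library) and FPKM (per kilobase and library size). The tool that made the counts is not given in the sources used here. The deposited group averages include S03 and were not used. All 17109 gene IDs matched RefSeq of Sscrofa11.1.

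Counts were rounded and tested with the quasi-likelihood test of edgeR 4.0.16 (R 4.3.3): TMM, filterByExpr with a minimum count of 10, and Benjamini-Hochberg adjustment over all genes tested. Standard errors (SE) were derived from F. DESeq2 1.42.0 and limma 3.58.1 were alternatives. The script was tested on simulated data. Libraries were grouped by the genotype label, and replicates are separate animals. With so few animals the spread between them limits precision more than counting error. The implied length is the count divided by FPKM and by the library total. The members and lists were chosen with earlier results of these data known. Named beside the 10 genes were the receptor genes, listed genes past the threshold, the 6 with the smallest p, and the most abundant of each role.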

Additional observations from a re-analysis of the deposited data

How the results depend on the processing

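No member passed with edgeR or limma under any alternative, and GNE passed with DESeq2 alone (1 member). GNE also passed with DESeq2 without S04 (adjusted p = 0.00966) and without WT3 (0.0406). Of 135 alternative fold changes of the 10 genes, 128 kept direction and side of the threshold. Leaving out 1 library, ST3GAL1 ran from -0.11 (without S05, and -0.051 without WT3) to 0.27, ST3GAL3 from -0.17 (without S05) to 0.34 and ST3GAL4 from -0.038 (without S05) to 0.34. Outside the 10, UAP1 ran from -0.17 (without S04, and -0.019 without WT3) to 0.38 and CTSA from -0.12 (without S04, and -0.10 without WT3) to 0.25. MGAT1 turned to 0.016 with S03, 0.015 with library totals, 0.021 and 0.022 with limma on log2(TPM + 1) and log2(TPM + 0.1), 0.059 without WT1 and 0.017 with DESeq2 and S03. Library totals alone and limma on log2(TPM + 0.1) each moved the median of all genes to 0.105. The cause was not tested.

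Of all genes, 106 passed with edgeR, 18 with S03, 1307 with DESeq2, 815 with DESeq2 and S03, and 183 and 231 with limma on the larger and smaller pseudocount. Leaving out 1 library gave 0 (without S05, 1770 at an unadjusted p under 0.05 with edgeR) to 115 genes (without WT3), with 2 without S04, 5 without WT2 and 53 without WT1. DESeq2 passed 4 listed genes of the wider route and 1 with S03. ASGR2 passed with DESeq2 at a log2 fold change of -0.76 (-0.69 with S03).

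The difference in share of the summed TPM (S04 and S05 minus WT, percentage points) was 1.33 for ST6GAL1, -0.56 with S03, 3.08 from counts and -0.27 to 2.93 leaving out 1 library. For ST3GAL1 it was 1.31, 0.046 (without S05) to 2.57 (without S04) leaving out 1 library, and -0.78 from counts. For ST3GAL5 it was -1.82, -1.24 with S03 and -1.27 from counts, for ST3GAL6 -0.18 and -0.092 with S03, and for ST6GAL2 -0.20, -0.11 with S03 and -0.36 from counts. The log2 ratio of ST6GAL1 to NEU1 differed by -0.21 (without S04) to 0.064 (without S05). Alternatives with DESeq2 and S03, DESeq2 without single libraries and the implied length were chosen after seeing the data. No paired analysis was made, because the labels name no pairing of animals between the groups.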

Other observations

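The proportions of 2 pairs of genes of the route are given as values, because the pairs were chosen after the levels were seen. By TPM, NANS and B4GALT1 were higher and CMAS and GNE lower in S04 and S05, without overlap. Both ratios therefore had to separate S04 and S05 from WT. The ratio of NANS to CMAS on the TPM scale was 1.02 (S04) and 0.970 (S05), and 0.677, 0.641 and 0.477 in WT1, WT2 and WT3. S03, at 0.692, was just above the WT range. The ratio of B4GALT1 to GNE was 1.36 (S04), 2.06 (S05) and 0.844 (S03), and 0.665, 0.672 and 0.823 in the WT libraries. A ratio within a library does not depend on the scaling of that library.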
